A study of Mus musculus with 13 samples.

Results

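The early lymphoid priming genes are 9 lymphoid genes that multipotent blood progenitors can express before they commit to the B or T lineage: Il7r, Cd27, Dntt, Rag1, Rag2, Blnk, Satb1, Ikzf1 and Ets1. They were chosen by name, with earlier results of these data known. A probe set counted for a gene only where the probe-to-gene table gave it that gene alone. Of the 9 genes, 8 had such probe sets, 87 of the 229581 on the array, and Cd27 had none under its symbol or an older name and was not analysed here. Per array, the probe sets of a gene were summarised by their median log2 intensity, called its level. By that measure 7 of the 8 genes lay above the filter on low values (log2 6.0, the 30th percentile of all genes), among 10586 of 15123 genes that did. Rag2 lay below the filter, so its tests come from a fit of all genes without it.

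The samples were 13 arrays, each from 1 mouse of strain Bl/6 Taconic, with RNA of sorted bone marrow cells taken from femurs and tibiae. The mCG-PR mice (genotype mCG-PR N17) express PML-RARA, the fusion protein of acute promyelocytic leukaemia, from the murine cathepsin G locus, whose promoter is most active in promyelocytes. The controls were their wild-type littermates (WT). KLS cells, a compartment of stem cells and multipotent progenitors, came from mCG-PR mice of 13 weeks (n = 2), mCG-PR mice of 6 weeks (n = 3) and WT mice of 12 to 13 weeks (n = 4). SLAM cells, a compartment enriched for long-term stem cells, came from mCG-PR mice of 7 weeks (n = 2) and WT mice of 6 weeks (n = 2). The mCG-PR KLS mice of 6 weeks had no WT KLS mice of their own age, so age and genotype cannot be told apart in that comparison. Where both ages of mCG-PR KLS cells are pooled, 3 of the 5 arrays carry the same limit. The WT SLAM mice were also younger than the WT KLS mice, so age and compartment cannot be told apart between them. Among SLAM cells, all mCG-PR mice were 7 weeks and all WT mice 6 weeks old. Age and genotype therefore cannot be told apart there either, nor where SLAM and KLS genotype differences are compared. For both sorts the sources used here give no gates.

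Lymphoid priming starts in multipotent progenitors that carry the receptor Flt3. Ikaros, the protein of Ikzf1, and the chromatin organiser Satb1 act early in it, and the interleukin-7 receptor then carries survival and growth signals into the common lymphoid progenitor. Rag1 and Rag2 form the recombinase that cuts antigen receptor genes, and terminal transferase, the product of Dntt, adds untemplated nucleotides at the cut ends. Blnk joins the pre-B cell receptor to its kinases, and Ets1 is a transcription factor of lymphoid cells. Long-term stem cells carry little of this programme.

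The promoters of Il7r, Blnk and Dntt are printed here because the first pair had the lowest p of the genes between mCG-PR and WT KLS arrays and Dntt the largest difference between SLAM and KLS cells. Each is the 250 bases before the gene's start, 5′ to 3′ on the gene's strand, from RefSeq on GRCm38.p6. Il7r lies at chr15:9529877-9530126 (minus strand), Blnk at chr19:40994222-40994471 (minus strand) and Dntt at chr19:41029025-41029274 (plus strand). Capitals mark a match to a searched motif.
Il7r: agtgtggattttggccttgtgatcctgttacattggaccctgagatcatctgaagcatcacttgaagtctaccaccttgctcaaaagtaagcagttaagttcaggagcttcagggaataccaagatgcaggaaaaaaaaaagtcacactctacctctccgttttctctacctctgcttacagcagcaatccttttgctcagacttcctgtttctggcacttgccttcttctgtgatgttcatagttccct
Blnk: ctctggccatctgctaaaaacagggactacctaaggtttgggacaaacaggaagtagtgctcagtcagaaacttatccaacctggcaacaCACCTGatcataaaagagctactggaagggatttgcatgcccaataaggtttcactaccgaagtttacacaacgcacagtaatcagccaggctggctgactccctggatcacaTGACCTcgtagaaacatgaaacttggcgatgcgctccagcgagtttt
Dntt: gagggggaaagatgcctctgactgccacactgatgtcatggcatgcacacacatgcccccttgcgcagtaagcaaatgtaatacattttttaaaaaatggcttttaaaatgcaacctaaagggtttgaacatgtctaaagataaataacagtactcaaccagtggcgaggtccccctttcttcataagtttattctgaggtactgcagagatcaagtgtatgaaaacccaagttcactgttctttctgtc
The motifs searched on both strands were TGGGAA (Ikaros), CGGAAG (ETS factors), CAGGTG (E proteins), AGGTCA (a retinoic acid receptor half-site) and TGTTTAC (FOXO factors); none of them contains another. The Blnk window held CACCTG, the reverse complement of CAGGTG, from position -160, and TGACCT, the reverse complement of AGGTCA, from position -47, both counted from the gene's start. Of 32851 windows of the same length, 17.22% held CAGGTG, 14.02% AGGTCA, 21.59% TGGGAA, 13.59% CGGAAG and 3.17% TGTTTAC on either strand. The Il7r and Dntt windows held none of the 5 motifs, nor did those of Ikzf1 and Cd27. The Rag1 window held the Ikaros and E protein motifs, that of Rag2 the retinoic acid receptor half-site, and the several windows of Satb1 had matches to these 3 motifs between them. RefSeq windows were at hand for 8 of the 9 genes, Ets1 being the exception. A match describes the letters of the window and is not evidence of binding.

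Among markers of the sorts, Flt3, Cd48 and Cd34 separated SLAM from KLS arrays, while Kit, Ly6a, Procr and Slamf1 overlapped. Slamf1 was at 6.21 and 6.63 in mCG-PR SLAM cells and 7.68 and 7.47 in WT SLAM cells, against up to 6.31 on KLS arrays. Flt3 averaged 10.57 and 10.64 in mCG-PR KLS cells of 13 and 6 weeks and 10.23 in WT KLS cells, against 8.43 in mCG-PR SLAM and 7.56 in WT SLAM cells. Cd48, which the SLAM sort selects against, averaged 4.25 in mCG-PR SLAM and 5.13 in WT SLAM cells and at least 8.83 in each KLS group. The SLAM arrays were the noisier ones, with a median pooled SD per gene of 0.33 (log2) against 0.22 for KLS arrays and within-group correlations across genes of 0.821 to 0.828 against 0.950 to 0.966. WT SLAM replicate 2 stood apart. Its summed intensity of neutrophil markers was 27308.6, against 9334.1 on WT SLAM replicate 1, and its Ms4a1, a gene of mature B cells, was at 6.32, against 3.92 to 5.03 on all other arrays. WT KLS replicate 3 had the highest Jchain, a gene of antibody-secreting cells, at 9.84, followed by WT KLS replicate 4 at 8.50. Both came from mice of 12 weeks. Replicates 1 and 2, from mice of 13 weeks, were at 6.17 and 6.78. Counts and calls of the early lymphoid genes that change without WT SLAM replicate 2 or WT KLS replicate 3 are given without that array too. Counts of the gene lists further on, and calls of their genes, are with all arrays unless stated. Several of them change without WT SLAM replicate 2 or WT KLS replicate 3. Precision is limited by how few arrays each group has.

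Some of these genes were far lower in SLAM than in KLS cells, and within KLS cells all 8 were higher on average in mCG-PR than in WT mice, with no difference that passed the test. Dntt, Satb1, Il7r and Ikzf1 passed as lower in WT SLAM than in WT KLS cells. Between mCG-PR and WT KLS cells, Il7r had the largest difference, 2.59-fold, and Il7r, Blnk and Ikzf1 were higher on all 5 mCG-PR arrays than on any of the 4 WT arrays. All differences here are from limma on log2 values with standard errors after ±, and a gene passed where its p adjusted over all tested genes (Benjamini-Hochberg) was under 0.05. In bulk samples fewer cells of a type and less RNA per cell cannot be told apart.

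**Figure D1:**
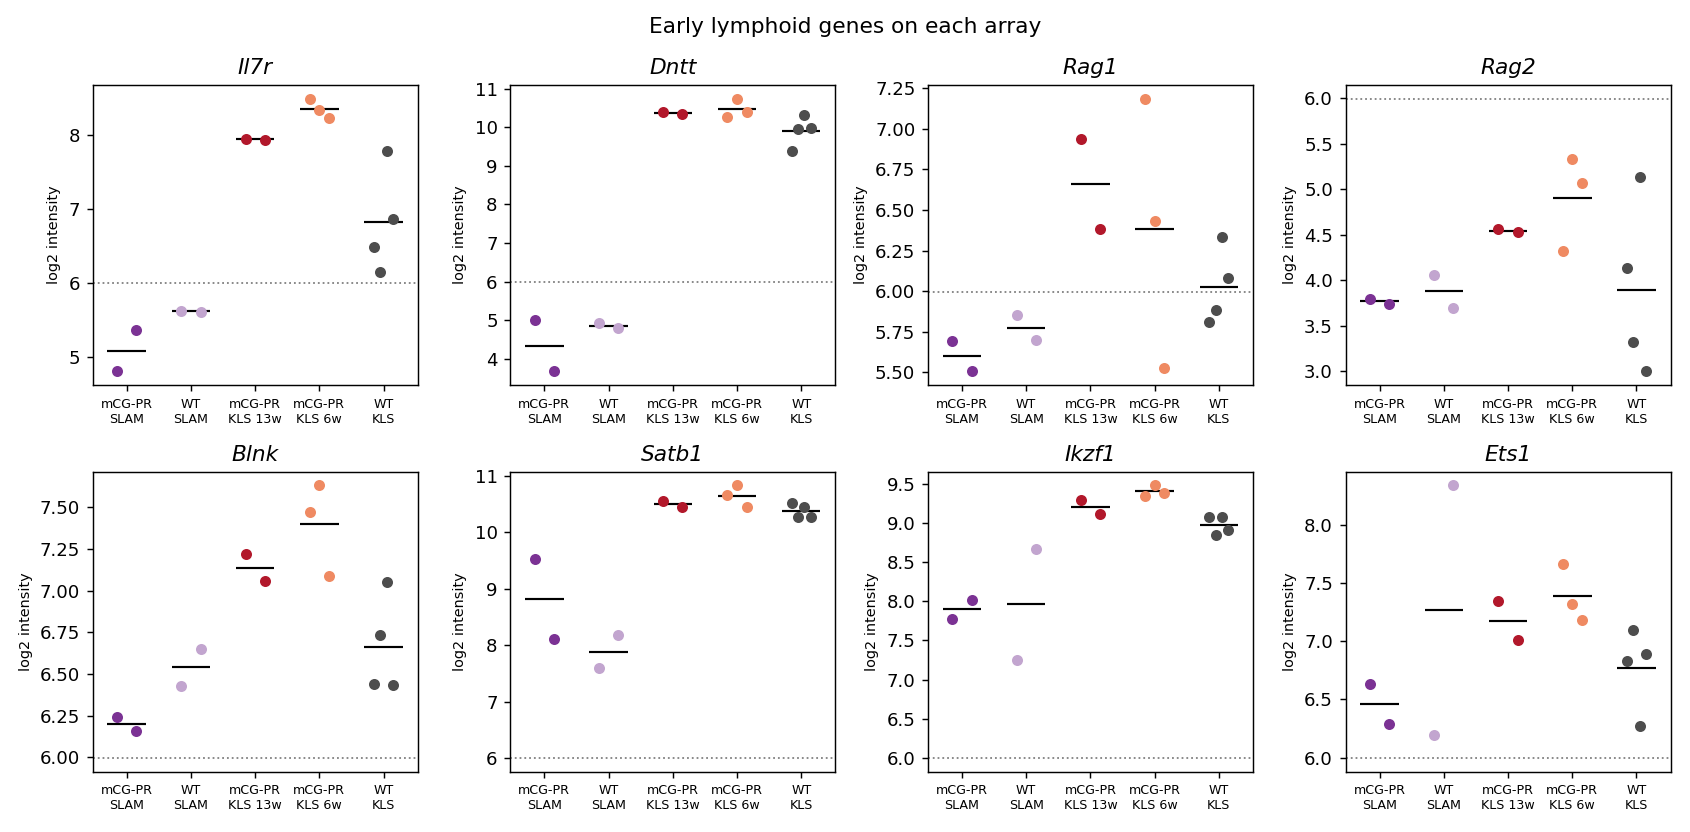
Log2 intensity of the 8 measured genes on each array, by group; a point is 1 array, the bar is the group mean and the dotted line is the filter at log2 6.0. In the Il7r, Blnk and Ikzf1 panels all mCG-PR KLS points lie above all WT KLS points, and in the Dntt and Satb1 panels all SLAM points lie below all KLS points.

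Il7r encodes the specific chain of the interleukin-7 receptor. Its log2 intensity was 7.95 and 7.94 in mCG-PR KLS cells of 13 weeks and 8.50, 8.35 and 8.24 in those of 6 weeks, against 6.49, 6.15, 7.78 and 6.87 in WT KLS cells. The groups did not overlap, although WT KLS replicate 3 came near the mCG-PR arrays of 13 weeks. The difference was 1.12 ± 0.34 at 13 weeks (adjusted p = 0.600), 1.54 ± 0.30 at 6 weeks (adjusted p = 0.262) and 1.37 ± 0.26 over both ages (adjusted p = 0.159). None of these passed, and all 3 share the WT KLS arrays. The call depended on WT KLS replicate 3 and on the fit. Without that array the difference was 1.69 over both ages (adjusted p = 0.0124) and 1.86 at 6 weeks (adjusted p = 0.00672), which passed. It also passed over both ages where KLS and SLAM arrays were given separate weights (adjusted p = 0.0383), where 0.113% of all genes passed. Over 20 alternatives the difference over both ages lay between 0.87 and 1.87, positive in every one, and 3 of the 20 passed.

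In SLAM cells the level of Il7r was below the filter on every array. It was 4.81 and 5.37 in mCG-PR SLAM cells, against 5.62 and 5.61 in WT SLAM cells, a difference of -0.53 ± 0.39 (adjusted p = 0.524) that did not pass. Both mCG-PR SLAM arrays lay below both WT SLAM arrays, whereas the mCG-PR KLS arrays lay above the WT KLS arrays. The genotype difference in SLAM minus that in KLS cells was -1.90 ± 0.47 (adjusted p = 0.0715), which did not pass. It passed under 4 of 23 alternatives, among them the fit without WT KLS replicate 3 (-2.22, adjusted p = 0.0139). Il7r fell by 1.21 ± 0.34 on the log2 scale in WT SLAM against WT KLS cells (adjusted p = 0.0356), which is set against SLAM values below the filter and would be -0.83 with the filter level in their place. Il7r too passed the filter through the KLS groups. That call held in 7 of 17 alternatives and not with separate weights (adjusted p = 0.196), nor without WT SLAM replicate 1 (adjusted p = 0.0909) or replicate 2 (adjusted p = 0.0984).

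Dntt encodes terminal transferase. It was at 10.40 and 10.35 in mCG-PR KLS cells of 13 weeks and 10.27, 10.75 and 10.40 in those of 6 weeks, against 9.40, 9.97, 10.31 and 9.99 in WT KLS cells. Of the 5 mCG-PR arrays 4 lay above every WT array, and the groups overlapped at the edge. The difference was 0.46 ± 0.32 at 13 weeks, 0.56 ± 0.28 at 6 weeks and 0.52 ± 0.24 over both ages (adjusted p = 0.682), with no call. In SLAM cells Dntt lay below the filter on every array, at 4.99 and 3.67 in mCG-PR cells, against 4.93 and 4.78 in WT cells. The mCG-PR arrays fell on both sides of the WT arrays, and the difference of -0.53 ± 0.37 did not pass (adjusted p = 0.494). Dntt had the largest estimate of the 8 genes between the compartments: it fell by 5.05 ± 0.32 in WT SLAM against WT KLS cells (adjusted p = 3.35e-06). Dntt passed the filter through the KLS groups alone, and its size is set against values below the filter. With the filter level in place of the WT SLAM values the difference would be -3.92. The call held in all 17 alternatives, with differences from -5.42 to -4.82.

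Rag1 and Rag2 encode the recombinase, and both were dim. Rag1 was at 6.94 and 6.38 in mCG-PR KLS cells of 13 weeks and 7.19, 6.43 and 5.53 in those of 6 weeks, against 5.81, 5.88, 6.33 and 6.08 in WT KLS cells. The arrays of 13 weeks lay above the WT arrays, while those of 6 weeks spread across them. The difference was 0.63 ± 0.34 at 13 weeks, 0.36 ± 0.30 at 6 weeks and 0.47 ± 0.26 over both ages (adjusted p = 0.750). Without mCG-PR KLS 6 weeks replicate 1 the difference at 6 weeks was -0.05. Rag1 passed the filter through the mCG-PR KLS groups, with means of 6.66 at 13 weeks and 6.38 at 6 weeks. Its means were 6.03 in WT KLS, 5.60 in mCG-PR SLAM and 5.78 in WT SLAM cells. Its positive KLS differences are thus not independent of the filter. Rag1 was at 5.69 and 5.51 in mCG-PR SLAM cells, against 5.85 and 5.70 in WT SLAM cells, all below the filter (-0.18 ± 0.40, adjusted p = 0.871).

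Rag2 lay below the filter on all 13 arrays. It was at 4.56 and 4.53 in mCG-PR KLS cells of 13 weeks and 4.32, 5.33 and 5.07 in those of 6 weeks, against 4.14, 3.32, 5.14 and 3.00 in WT KLS cells. The WT KLS arrays spread more widely than the mCG-PR arrays and overlapped them. The difference was 0.65 ± 0.46 at 13 weeks, 1.01 ± 0.41 at 6 weeks and 0.86 ± 0.35 over both ages (adjusted p = 0.628). In SLAM cells Rag2 was at 3.79 and 3.74 in mCG-PR mice, against 4.06 and 3.70 in WT mice, with both mCG-PR values between the WT values. Neither Rag gene differed detectably between WT SLAM and WT KLS cells, with differences of -0.25 ± 0.34 for Rag1 and -0.02 ± 0.46 for Rag2 at levels near or below the filter.

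Blnk encodes the adaptor that links the pre-B cell receptor to Btk and phospholipase C. It was at 7.22 and 7.06 in mCG-PR KLS cells of 13 weeks and 7.47, 7.63 and 7.09 in those of 6 weeks, against 6.44, 6.74, 7.05 and 6.43 in WT KLS cells. The groups did not overlap, with WT KLS replicate 3 close below the lowest mCG-PR arrays. The difference was 0.47 ± 0.21 at 13 weeks (adjusted p = 0.670), 0.73 ± 0.19 at 6 weeks (adjusted p = 0.543) and 0.63 ± 0.17 over both ages (adjusted p = 0.433). It stayed between 0.52 and 0.77 over both ages in 20 alternatives and passed in none. In SLAM cells Blnk was at 6.24 and 6.16 in mCG-PR mice, against 6.43 and 6.65 in WT mice. Both mCG-PR SLAM arrays lay below the WT SLAM arrays (-0.34 ± 0.25, adjusted p = 0.516). The genotype difference in SLAM minus that in KLS cells was -0.97 ± 0.30 (adjusted p = 0.143). WT SLAM and WT KLS cells differed by -0.12 ± 0.21, with overlapping arrays.

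Satb1 encodes a chromatin organiser of lymphoid cells and was steady among KLS cells. It was at 10.56 and 10.45 in mCG-PR KLS cells of 13 weeks and 10.66, 10.84 and 10.45 in those of 6 weeks, against 10.52, 10.27, 10.46 and 10.28 in WT KLS cells. The groups overlapped, and the difference over both ages was 0.21 ± 0.23 (adjusted p = 0.876, 95% interval -0.28 to 0.70). In WT SLAM cells Satb1 fell by 2.50 ± 0.31 against WT KLS cells (adjusted p = 0.0004875), a call that held in all 17 alternatives (-2.79 to -2.21). Among SLAM cells it was at 9.53 and 8.11 in mCG-PR mice, against 7.59 and 8.17 in WT mice. Only mCG-PR SLAM replicate 1 stood above the WT arrays. The difference of 0.93 ± 0.35 did not pass (adjusted p = 0.178), and without mCG-PR SLAM replicate 2 it was 1.64 (adjusted p = 0.00576). The other 7 genes had negative differences between mCG-PR and WT SLAM cells, though that of Ikzf1 was 0.06 after quantile normalisation.

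Ikzf1 encodes Ikaros, a zinc finger factor that opens the lymphoid programme. It was at 9.29 and 9.12 in mCG-PR KLS cells of 13 weeks and 9.35, 9.48 and 9.38 in those of 6 weeks, against 9.08, 8.84, 9.08 and 8.91 in WT KLS cells. The groups did not overlap, and the pooled SD of Ikzf1 among KLS arrays, 0.11, was the smallest of the 8 genes. The difference was small, 0.23 ± 0.29 at 13 weeks, 0.43 ± 0.25 at 6 weeks and 0.35 ± 0.22 over both ages (1.27-fold, adjusted p = 0.789). Its standard error comes from a spread shared with the SLAM arrays, where the pooled SD of Ikzf1 was 0.72. With the compared groups alone in the fit the adjusted p over both ages was 0.30, the lowest of 20 alternatives. In SLAM cells Ikzf1 was at 7.78 and 8.02 in mCG-PR mice, against 7.25 and 8.67 in WT mice, so the WT arrays enclosed the mCG-PR arrays (-0.06 ± 0.33). Without WT SLAM replicate 2 the difference was 0.65 (adjusted p = 0.136). Ikzf1 fell by 1.02 ± 0.29 in WT SLAM against WT KLS cells (adjusted p = 0.0369). That call held in 4 of 17 alternatives. Without WT SLAM replicate 1, with replicate 2 as the only WT SLAM array, the difference was -0.30, without replicate 2 it was -1.73, and with separate weights the adjusted p was 0.0785.

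Ets1 encodes the founding ETS factor. It was at 7.34 and 7.01 in mCG-PR KLS cells of 13 weeks and 7.66, 7.32 and 7.18 in those of 6 weeks, against 6.83, 7.10, 6.27 and 6.89 in WT KLS cells. The arrays of 6 weeks lay above the WT arrays, and 1 array of 13 weeks fell among them. The difference was 0.40 ± 0.43 at 13 weeks, 0.61 ± 0.38 at 6 weeks and 0.53 ± 0.32 over both ages (adjusted p = 0.777). In SLAM cells Ets1 was at 6.63 and 6.29 in mCG-PR mice, against 6.19 and 8.34 in WT mice. The value of 8.34 belongs to WT SLAM replicate 2, the array with the B cell, T cell and neutrophil genes, and it was the highest Ets1 value of all. The SLAM difference was -0.81 ± 0.50 (adjusted p = 0.430) with both WT arrays, 0.27 without WT SLAM replicate 2 and -1.88 without WT SLAM replicate 1. Against WT KLS cells, WT SLAM cells differed by 0.49 ± 0.43, and -0.58 without WT SLAM replicate 2.

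Counted over the genes, none passed between mCG-PR and WT KLS cells, where 0% of tested genes passed at 13 weeks, 0.00945% at 6 weeks and 0% over both ages. All 7 tested genes had positive differences in each of these comparisons, as did 57.7% of all genes at 13 weeks, 71.7% at 6 weeks and 67.9% over both ages. Their median difference was 0.46 at 13 weeks, 0.56 at 6 weeks and 0.52 over both ages, against 0.05, 0.11 and 0.09 over all genes. Without WT KLS replicate 3 all 7 were again positive in each comparison, with medians of 0.59, 0.46 and 0.57, and Il7r passed at 6 weeks and over both ages. At an unadjusted p under 0.05 there were 2 genes at 13 weeks, 2 at 6 weeks and 3 over both ages (Il7r, Blnk and Dntt). The shares of all genes that were higher at that p were 4.52%, 5.82% and 6.06%. Non-overlap with higher mCG-PR values held for 3 of the 7 tested genes over both ages, where it held for 3.55% of all genes. At 13 weeks it held for Il7r, Dntt, Rag1, Blnk and Ikzf1 (14.8% of all genes) and at 6 weeks for Il7r, Blnk, Ikzf1 and Ets1 (9.45%). Rag1 entered the 7 tested genes through its mCG-PR KLS values. Its positive sign and its non-overlap at 13 weeks are therefore not independent of the filter. The genes were chosen with earlier results of these data known, so these counts describe them and are not a test of the set.

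**Figure D2:**
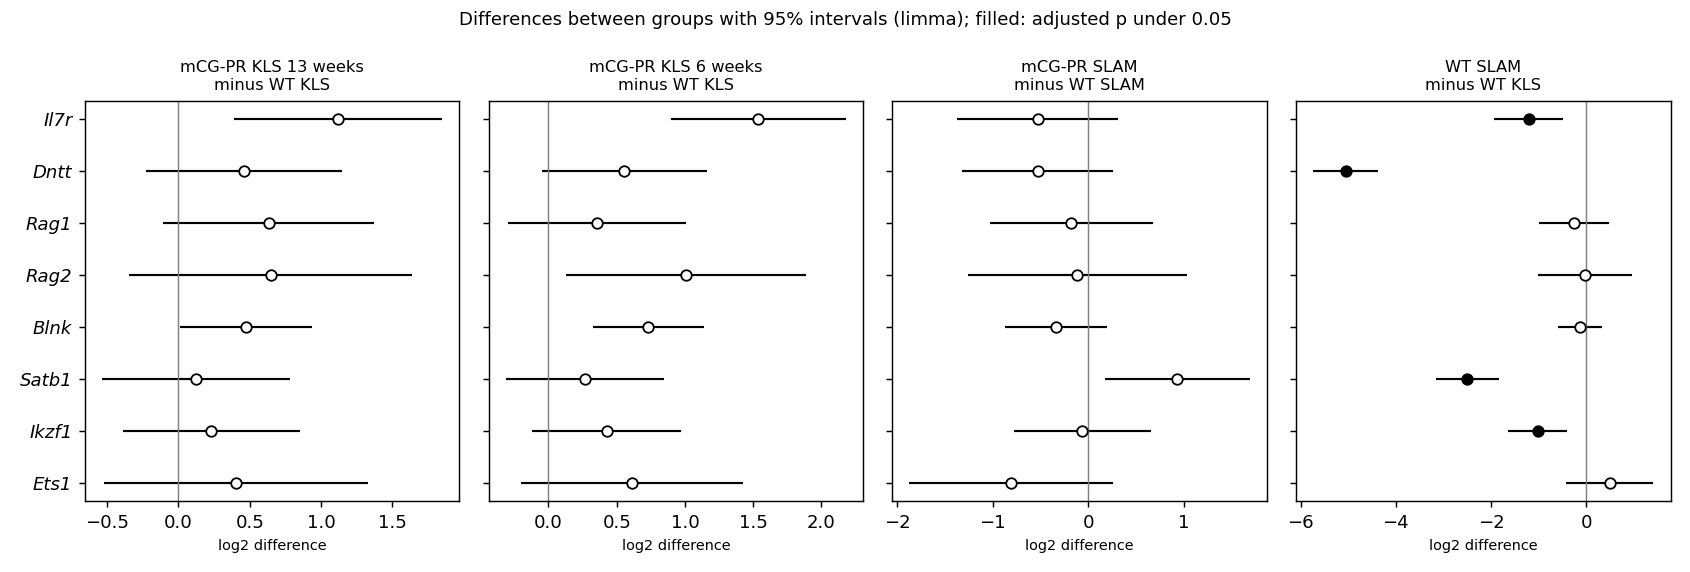
Log2 differences of the 8 genes in 4 comparisons (limma); points are estimates, lines 95% intervals, and filled points have an adjusted p under 0.05. Filled points appear only in the panel of WT SLAM minus WT KLS, for Il7r, Dntt, Satb1 and Ikzf1. Rag2 comes from the fit of all genes.

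The ages of mCG-PR KLS cells were compared on few arrays, with wide 95% intervals (for Ets1 -1.18 to 0.76). None of the 7 tested genes passed between 13 and 6 weeks, nor did any other gene (0%; 669 genes had an unadjusted p under 0.05). Il7r was lower at 13 weeks on both arrays than on any array of 6 weeks, with a difference of -0.42 ± 0.36 (adjusted p = 0.880, 95% interval -1.18 to 0.35). Ikzf1 also did not overlap (-0.20 ± 0.30), and such non-overlap with lower values held for 20.1% of all genes. The other differences lay between -0.26 (Blnk) and 0.28 (Rag1), with Rag2 at -0.36.

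Between mCG-PR and WT SLAM cells 0 of 7 tested genes passed, where 2.6% of all genes passed, and 0.0283% with separate weights. Of the 7, 6 had negative differences, as did 52.3% of all genes, and the median was -0.34 against -0.02 over all genes. Without WT SLAM replicate 2, 4 of the 7 were negative and 3 positive (Satb1, Ikzf1 and Ets1), with 47.2% of all genes negative, and the median was -0.23 against 0.03 over all genes. Il7r, Rag1 and Blnk did not overlap, with lower mCG-PR values, as held for 18.8% of all genes. Between WT SLAM and WT KLS cells 4 of 7 passed, all lower in SLAM cells, where 11.6% of all genes passed and 9.21% passed as lower. The same 4 genes did not overlap, as held for 22.3% of all genes. Without WT SLAM replicate 2, 3 of 7 passed (Dntt, Satb1 and Ikzf1), and without WT KLS replicate 3 also 3 (Dntt, Satb1 and Il7r). With separate weights 2 of 7 passed, Dntt and Satb1, where 3.12% of all genes did. None of the 7 passed in the comparison of genotype differences between SLAM and KLS cells, where 1.07% of all genes did, and 0% with separate weights.

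The single probe sets of a gene, each of which reads part of it, mostly had the direction of their median. Over both ages of KLS cells all 10 probe sets of Il7r were higher in mCG-PR than in WT mice, by 0.28 to 2.18, as were all 13 of Dntt (0.29 to 1.03) and all 8 of Ikzf1 (0.28 to 0.58). Every probe set was higher for 5.59% of all genes. All 5 probe sets of Rag2 were higher too, by 0.07 to 1.67, each with a mean below the filter. For Blnk 21 of 23 were higher, for Satb1 11 of 12, for Ets1 9 of 10 and for Rag1 4 of 6. Between WT SLAM and WT KLS cells all 13 probe sets of Dntt were lower, with differences from -6.93 to -3.49 and no overlap between the groups; every probe set was lower for 3.75% of all genes. For Satb1 11 of 12 were lower without overlap. For Il7r 8 of 10 were lower, from -3.32 to 0.79, and with the brighter probe sets alone the Il7r difference was -0.52 (adjusted p = 0.453).

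**Figure D3:**
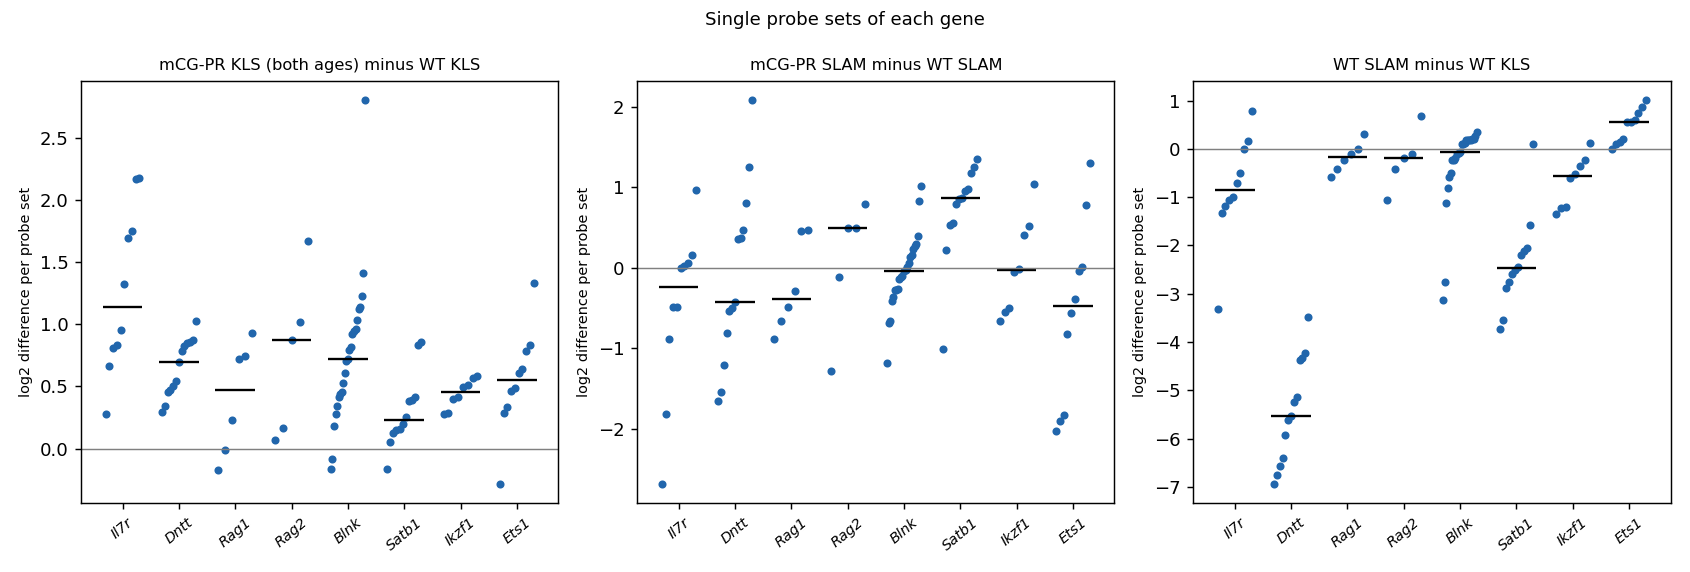
Log2 difference of each probe set of the 8 genes in 3 comparisons; a point is 1 probe set and the bar their median. For mCG-PR minus WT KLS nearly all points lie above 0, and for WT SLAM minus WT KLS the 13 Dntt points lie between -6.93 and -3.49.

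Across the 9 KLS arrays several of the genes went up and down together. The correlation was 0.87 for Il7r and Blnk, 0.86 for Il7r and Ikzf1, 0.87 for Satb1 and Ikzf1 and 0.85 for Dntt and Blnk (Pearson's r, n = 9). It was 0.17 for Rag1 and Rag2 and -0.0049 for Rag2 and Ets1. These points share the genotype difference. As deviations from group means over all 13 arrays, r was 0.47 for Il7r and Blnk and 0.15 for Il7r and Ikzf1. It was 0.26 for Satb1 and Ikzf1 and 0.45 for Dntt and Blnk. These values add the SLAM arrays, where pooled SDs were larger for Ikzf1 (0.72 against 0.11 in KLS), Satb1 (0.77 against 0.145) and Dntt (0.66 against 0.30). They were smaller for Il7r (0.28 against 0.50) and Blnk (0.12 against 0.27). The change in r can therefore not be put down to the genotype difference alone. The genes most like Il7r over the 9 KLS arrays were Slc38a1, an amino acid transporter, the cohesin subunit gene Smc3 (both r = 0.98), the spindle checkpoint gene Bub1b, Tmem201 and Tmem131l (each r = 0.95). Those most like the mean of the z-scores of the 7 genes above the filter were Irf8, Vsig8, Sox1 (each r = 0.95), Tesc and Bst2 (each r = 0.93). Irf8 and Bst2 are genes of dendritic cells.

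Genes that work with these 9 were described as lists, some genes standing in more than 1 list. In the list of interleukin-7 receptor signalling, 15 of 17 genes were tested. Over both ages of KLS cells 13 had positive and 2 negative differences (11 and 4 without WT KLS replicate 3). None passed, and the median was 0.16 against 0.09 over all genes. The leading members were Cish, a feedback inhibitor of cytokine receptors (0.52 ± 0.17), the survival gene Bcl2 (0.45 ± 0.19) and the kinase gene Pik3cd (0.34 ± 0.15). Cish, in WT SLAM against WT KLS cells, rose by 1.49 ± 0.22 (adjusted p = 0.00137), opposite to Il7r, and the phosphatase gene Ptpn2 fell by 0.77 ± 0.18 (adjusted p = 0.0170). Of these Cish alone passed with separate weights (adjusted p = 0.0171).

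Genes of V(D)J recombination and end joining had no common direction in KLS cells. Of 8 tested genes (12 listed), 4 were positive and 4 negative over both ages, with a median of -0.02 and 0 passing. Xrcc5 and Xrcc6, the subunits of the DNA end-binding protein Ku, were at -0.38 ± 0.19 and 0.45 ± 0.23. In WT SLAM against WT KLS cells 6 of the 8 passed, all lower, where 9.21% of all genes passed as lower, and the median was -0.91 against -0.05 over all genes. They include Xrcc6 (-1.58 ± 0.31, adjusted p = 0.00691), Xrcc5 (-1.57 ± 0.25, adjusted p = 0.00229), Xrcc4 (-1.11 ± 0.27) and the kinase gene Prkdc (-0.93 ± 0.19). These genes join breaks in all cells and not only at antigen receptor loci. With separate weights Xrcc5 and Xrcc6 passed. Hmgb2, a DNA-bending cofactor of the recombinase, fell by 1.80 ± 0.27 in mCG-PR against WT SLAM cells (adjusted p = 0.00702), a call not made with separate weights.

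Among lymphoid transcription factors 27 of 31 genes were tested, of which 22 were positive and 5 negative over both ages of KLS cells. Their median was 0.18 and 0 passed, against 1 without WT KLS replicate 3. Tcf7, the T lineage factor TCF1, led them. It was at 8.49 and 8.25 in mCG-PR KLS cells of 13 weeks and 8.41, 8.39 and 8.27 in those of 6 weeks, against 7.26, 7.69, 7.90 and 7.20 in WT KLS cells. The groups did not overlap, and the difference of 0.85 ± 0.15 missed the threshold (adjusted p = 0.159) and passed with separate weights (adjusted p = 0.0383). Tcf4, an E protein gene, was at 0.42 ± 0.14. In WT SLAM against WT KLS cells 8 of 27 passed, all lower (9.21% of all genes), with a median of -0.31. They include Ikzf2, the Ikaros relative Helios (-1.75 ± 0.21, adjusted p = 0.000471), Bach2 (-1.08 ± 0.25, below the filter in WT SLAM cells), Tcf4 (-0.93 ± 0.19) and Runx3 (-0.91 ± 0.20). Ikzf2 alone passed with separate weights.

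Surface and other genes of lymphoid-primed progenitors gave 18 positive and 3 negative differences among 21 tested genes over both ages of KLS cells (24 listed), with a median of 0.29 and 8 higher at an unadjusted p under 0.05, as were 6.06% of all genes. None passed. Ly86, a partner of a Toll-like receptor relative (1.05 ± 0.26), Ly6d, a marker of B-biased lymphoid progenitors (1.05 ± 0.27), the chemokine receptor gene Cxcr4 (0.71 ± 0.20) and the integrin gene Itgal (0.59 ± 0.15) led. Ly86 stands in the list of dendritic cell and monocyte markers as well. Of the 21 genes, 5 passed in WT SLAM against WT KLS cells, all lower (9.21% of all genes), with a median of -0.66. Tespa1, a gene of T cell receptor signalling, fell by 4.03 ± 0.26 (adjusted p = 3.35e-06). Its WT SLAM values, 4.05 and 4.53, lay below the filter, and with the filter level in their place the difference would be -2.33. The differences were -3.15 ± 0.50 for Cd53, -2.67 ± 0.18 for Flt3 and -1.12 ± 0.23 for Cd44, and all but Cd44 and Itgal passed with separate weights. Flt3 was at 8.35 and 8.51 in mCG-PR SLAM cells, against 7.65 and 7.47 in WT SLAM cells. It rose by 0.87 ± 0.21 (adjusted p = 0.0445), a call not made with separate weights or without WT SLAM replicate 2.

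Adaptors and kinases of the pre-B cell receptor, the partners of Blnk, had 10 positive and 3 negative differences among 13 tested genes in KLS cells over both ages (16 listed), with a median of 0.21 and 0 passing. The kinase gene Blk was at 0.35 ± 0.14 and the adaptor gene Grb2 at 0.38 ± 0.20. In WT SLAM against WT KLS cells 5 of 13 passed, all lower (9.21% of all genes), with a median of -0.59, among them Vav3 (-1.14 ± 0.16), Btk (-0.91 ± 0.18) and Vav1 (-0.91 ± 0.23). Vav3 alone passed with separate weights. In the list of CD27 signalling and its TNF receptor relatives, 11 of 17 genes were tested and 0 passed in either comparison. Their median was 0.09 for mCG-PR against WT KLS cells and 0.23 for WT SLAM against WT KLS cells, where the median over all genes was -0.05.

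**Figure D4:**
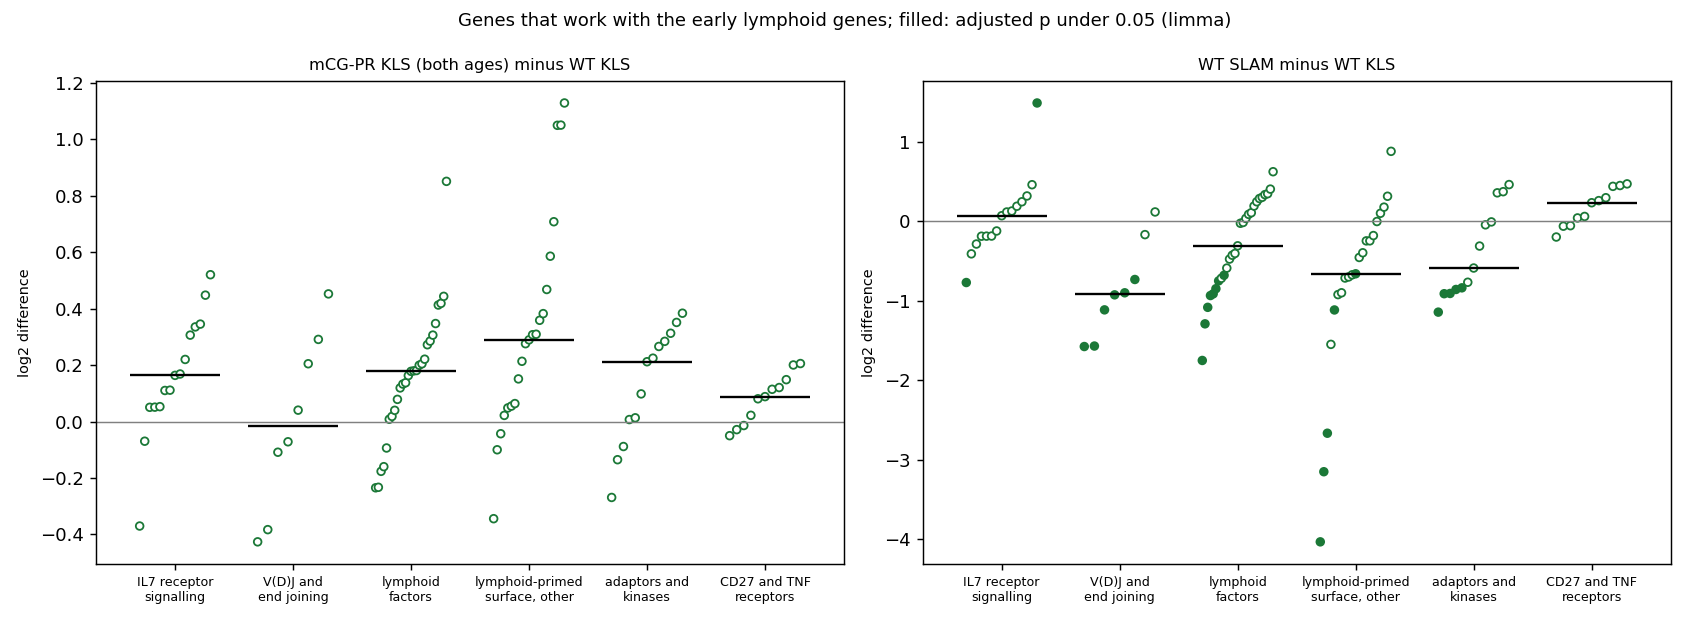
Log2 differences of the tested genes in 6 lists for mCG-PR minus WT KLS cells over both ages and for WT SLAM minus WT KLS cells; a point is 1 gene, the bar the median of the list, and filled points have an adjusted p under 0.05 (limma). No point is filled for KLS cells, and nearly all filled points of the other comparison lie below 0, Cish being the exception.

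Markers of other cell types were read beside these values. The dendritic cell and monocyte list, with 12 of 12 genes measured, was higher in mCG-PR than in WT KLS cells, as the early lymphoid genes were. Of its 10 tested genes 8 were positive and 2 negative over both ages, with a median of 0.76 against 0.09 over all genes. In WT SLAM against WT KLS cells its median was -0.10 with 0 passing, against -1.02 for the early lymphoid genes. Its summed intensity was 2060.5 to 2089.8 in mCG-PR KLS cells of 13 weeks and 2103.4 to 3023.6 in those of 6 weeks, against 1334.1 to 1680.3 in WT KLS cells. Siglech, a receptor of plasmacytoid dendritic cells, was at 7.19 and 7.18 in mCG-PR KLS cells of 13 weeks and 7.62 to 8.11 in those of 6 weeks, against 5.96 to 6.55 in WT KLS cells. Siglech was the 1 gene of 10586 that passed between mCG-PR and WT KLS cells at 6 weeks, with a difference of 1.61 ± 0.19 (adjusted p = 0.0118). The part of these cells in the levels of Il7r, Blnk and Ikzf1 was not tested. The list of committed B cells, with 13 of 18 genes measured, overlapped between the genotypes through WT KLS replicate 3. Its summed intensity was 1530.9 to 1563.5 at 13 weeks and 1295.0 to 1391.3 at 6 weeks in mCG-PR KLS cells, against 1263.1, 1229.7, 2110.7 and 1439.1 in WT KLS cells. The high sum of replicate 3 came largely from Jchain, at 9.84. On that array Cd79a (6.42) and Vpreb3 (5.38) were the lowest of the WT KLS arrays. Ms4a1 (5.03, below the filter) was the highest of them. Without replicate 3 the arrays of 13 weeks lay above all WT KLS arrays, and those of 6 weeks still overlapped them. Of its 9 tested genes 8 were positive at 13 weeks, with a median of 0.31 against 0.05 over all genes, and 7 over both ages, with 0.21 against 0.09. T and NK cell markers, 19 of 20 measured, summed to 2272.4 to 2542.6 at 13 weeks and 2125.8 to 2843.3 at 6 weeks, against 1806.6 to 2417.3 in WT KLS cells. Neutrophil markers, 9 of 10 measured, summed to 5441.9 to 5633.9 and 4786.2 to 10367.2 at these ages, against 8795.3 to 11138.3 in WT KLS cells. Erythroid markers, 6 of 10 measured, summed to 781.5 and 872.6 at 13 weeks and 945.7 to 1041.9 at 6 weeks, against 622.4 to 830.3 in WT KLS cells, so the arrays of 6 weeks lay above the WT arrays. Among them Tfrc, the transferrin receptor gene that dividing cells also carry, averaged 8.77 and 9.27 at these ages, against 8.35 in WT KLS cells. Megakaryocyte markers, 6 of 8 measured, overlapped, at 626.0 to 760.3 in mCG-PR KLS cells and 526.8 to 908.6 in WT KLS cells. The part of these cells in the results was not tested either. These intensities have no true zero, so no marker could be called absent.

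In SLAM cells the B cell list summed to 966.7 to 986.9 in mCG-PR mice, against 965.0 and 1857.5 in WT mice, the higher value on WT SLAM replicate 2. The neutrophil list summed to 8452.6 and 2865.5 in mCG-PR SLAM cells, against 9334.1 and 27308.6 in WT SLAM cells. Of its 9 genes 8 had negative differences, 2 of which passed, with a median of -1.69, and without WT SLAM replicate 2 the median was -0.93 with 0 passing. Its part in the SLAM differences was not tested. On WT SLAM replicate 2 Cd79a, a subunit of the B cell receptor, was at 7.47 and Vpreb3, a gene of precursor B cells, at 7.49, against 6.34 and 5.50 on WT SLAM replicate 1. The T cell genes Cd3d and Cd3g were at 6.22 and 7.01 on WT SLAM replicate 2, against 5.18 and 5.36 on WT SLAM replicate 1. The high Ets1 and Ikzf1 values of WT SLAM replicate 2 stood beside these markers, and the part of B cells or T cells in them was not tested. Dntt and Satb1, whose calls were kept without either WT SLAM array, did not rest on it.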

How the data were processed

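RNA of sorted cells had been hybridised to Affymetrix mouse exon arrays, 13 in all and 1 mouse each. The deposited values are intensities on a linear scale (2.34 to 21748.2), and per the submitters' processing notes RMA and mm9 were used, with settings not given in the sources used here. Array medians lay between 98.6 and 115.3.

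Log2 of the deposited intensity was taken per probe set, and a gene's value was the median over its probe sets with exactly 1 gene in the platform annotation, with at least 3 such probe sets. Of 229581 probe sets 208397 had 1 gene, 3965 several and 17219 none. Symbols were updated through RefSeq tables for 1928 of the 15123 genes. Genes with a mean above the 30th percentile entered 1 limma fit (version 3.58.1, R 4.3.3) of all 13 arrays and 5 groups, so all groups share 1 estimate of spread. The Benjamini-Hochberg adjustment covered every gene in the fit, with a threshold of 0.05, and the script was tested on simulated data. "Both ages" pools the mCG-PR KLS arrays of 13 and 6 weeks. Separate weights let KLS and SLAM arrays differ in spread.

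The genes and lists were chosen with earlier results of these data known. The text names all 9 genes, up to 4 genes per list and comparison with the smallest unadjusted p, and defining markers of other cells. It also names the 5 genes most like Il7r and most like the mean of the 7 genes above the filter. Same-numbered arrays of different groups did not deviate together (21 pairs, r from -0.066 to 0.077), so the replicate numbers were not taken as pairs.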

Additional observations from a re-analysis of the deposited data

Results flagged for a closer look

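Of the genes in the lists, 3 had a genotype difference in SLAM cells that differed from that in KLS cells by the test of the difference itself (limma), all lower. None of the 3 passed with separate weights for KLS and SLAM arrays.

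Cxcr4 was at 8.98 and 8.37 in mCG-PR SLAM cells, against 9.99 and 9.48 in WT SLAM cells. It was at 9.59 and 9.53 in mCG-PR KLS cells of 13 weeks and 8.99, 9.84 and 9.86 in those of 6 weeks, against 8.64 to 9.05 in WT KLS cells. The difference of differences was -1.77 (adjusted p = 0.0348). It passed in 10 of 23 alternatives, from -2.08 to -1.18, and its adjusted p with separate weights was 0.297.

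Hmgb2 was at 8.48 and 8.29 in mCG-PR SLAM cells, against 10.14 and 10.23 in WT SLAM cells. Its KLS arrays overlapped between genotypes, at 9.96 to 10.99 in mCG-PR mice and 10.21 to 10.48 in WT mice. The difference of differences was -1.84 (adjusted p = 0.0233). It passed in 19 of 23 alternatives, from -1.95 to -1.55, with an adjusted p of 0.286 with separate weights.

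Ly86 was at 5.35 and 6.18 in mCG-PR SLAM cells, against 7.26 and 6.94 in WT SLAM cells. It was at 7.81 and 8.43 in mCG-PR KLS cells of 13 weeks and 8.01, 8.74 and 7.78 in those of 6 weeks, against 6.75, 7.00, 7.79 and 6.87 in WT KLS cells. The difference of differences was -2.38 (adjusted p = 0.0284). It passed in 15 of 23 alternatives, from -2.80 to -1.97, with an adjusted p of 0.297 with separate weights.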

How the results depend on the processing

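Of 962 values of the early lymphoid genes under alternatives, 898 kept their direction and their side of the threshold, 17 newly passed, 23 no longer passed and 24 changed sign; the causes were not tested. The calls of Dntt and Satb1 between WT SLAM and WT KLS cells held in all 17 alternatives. Depth is not defined for arrays; low signal over background limits Rag1 and Rag2 everywhere and Il7r and Dntt in SLAM cells, and groups of 2 arrays limit every SLAM result.

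Under other settings than leaving out 1 array, the values with a changed sign lay between 0.0147 and 0.153. Between 13 and 6 weeks, Dntt was at 0.0579 with the mean of probe sets and 0.0892 after quantile normalisation, where Satb1 was at 0.0186 and Ikzf1 at 0.0358. Between mCG-PR and WT SLAM cells, Rag1 was at 0.0698 with bright probe sets only, Rag2 at 0.076 and Ikzf1 at 0.0251 with the mean of probe sets, and Ikzf1 at 0.0631 after quantile normalisation. Between WT SLAM and WT KLS cells, Rag2 was at 0.0147 with array medians subtracted and 0.15 with WT KLS replicates 1 and 2 only.

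Leaving out 1 array at a time gave Rag1 at 6 weeks -0.0465 to 0.7842. Between 13 and 6 weeks it gave Dntt -0.2006 to 0.0398 and Rag1 -0.15 to 0.68. In SLAM cells it gave Dntt -1.19 to 0.13, Rag2 -0.2944 to 0.0701, Ikzf1 -0.77 to 0.65 and Ets1 -1.88 to 0.27. Between WT SLAM and WT KLS cells it gave Rag2 -0.32 to 0.40, Blnk -0.2335 to 0.0052 and Ets1 -0.58 to 1.57. The genotype difference in SLAM minus that in KLS cells ranged from -1.12 to 0.31 for Ikzf1. Where that left a group with 1 array, the lone array was assumed to vary like the other groups.

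Counts of all genes that passed moved more. At 6 weeks (1 gene) the count was 0 with the mean of probe sets, quantile normalisation, the replicate block or WT KLS replicates 3 and 4 only, 2 with the compared groups alone, 12 with separate weights and 0 to 3 with 1 array left out. At 13 weeks (0 genes, 782 at an unadjusted p under 0.05) it was 12 with the compared groups alone. Over both ages (0 genes, 760 at an unadjusted p under 0.05) it was 2 without the filter or with WT KLS replicates 1 and 2 only, 1 with the mean of probe sets or bright probe sets, 9 with the compared groups alone, 12 with separate weights and 0 to 6 with 1 array left out. Between 13 and 6 weeks (0 genes) it was 1 with separate weights. In SLAM cells (275 genes) it was 171 without the filter, 421 with the mean of probe sets, 504 after quantile normalisation, 0 with the compared groups alone, 3 with separate weights, 69 with the replicate block and 371 to 825 with 1 array left out. Between WT SLAM and WT KLS cells (1229 genes) it was 330 with separate weights, 410 with the replicate block, 439 with WT KLS replicates 3 and 4 only, 342 with replicates 1 and 2 only and 754 to 1360 with 1 array left out. For the difference between SLAM and KLS genotype effects (113 genes) it was 62 without the filter, 200 after quantile normalisation, 0 with separate weights or WT KLS replicates 3 and 4 only, 16 with the replicate block, 33 with WT KLS replicates 1 and 2 only and 26 to 568 with 1 array left out. With the replicate block, Il7r (-0.98, adjusted p = 0.166) and Ikzf1 (adjusted p = 0.125) no longer passed between WT SLAM and WT KLS cells.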
